A study of Mus musculus with 9 samples.

Results

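The 6 libraries described here, of 9 in the series, record the entry of mouse muscle precursor cells into differentiation. C2C12 is an established mouse myoblast line whose cells proliferate in rich serum and form multinucleate myotubes when the serum is changed. The tissue label reads whole muscle, while the cell line is given as C2C12 and the protocol describes culture. The samples are treated here as cultured cells. Each of 3 populations gave 1 library in growth medium with fetal bovine serum (day 0) and 1 library on day 3 in horse serum. Per the labels, WT cells were given a non-targeting guide RNA as a control, and in Per1KO and Per2KO the clock genes Per1 and Per2 were knocked out with CRISPR-Cas9; whether these are clones or pools is not given in the sources used here. The members are the 3 day 3 and the 3 day 0 libraries, paired by population, and the question is which groups of genes switch on or off by day 3 in all 3. The 3 day 5 libraries entered the filter on low counts and the fit, and no comparison with them is made. Time in culture and the change of serum go together, so their parts in any difference cannot be told apart.

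Myoblasts leave the cell cycle before they become muscle. The MyoD family of transcription factors, with Myog acting late and MEF2 proteins as partners, binds E-box and MEF2 sites of muscle genes, while Id proteins, cyclin D1 and mitogen signals hold this step back. Cells that have withdrawn line up, fuse by the membrane proteins myomaker and myomixer, and replace the actin, myosin and metabolic isoforms found in most cells by those of the sarcomere and of contracting muscle.

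Depth was uneven: WT had 6773320 counts on day 0 and 5771983 on day 3, the knockout libraries 46191257 to 48051824. Counting limits the precision most in WT, where 3 reads, the limit that a count of 0 allows, correspond to 0.443 CPM (reads of a gene relative to the library's size, with TMM scaling for all gene levels below) on day 0 and 0.520 CPM on day 3, against 0.0624 to 0.0649 CPM in the knockouts. Only the WT titles carry a suffix that looks like a lane number, and sequencing runs are not named in the sources used here. Any run difference between populations could therefore not be told from population. Every day 3 library was compared with the day 0 library of its own population. Per1 was at 35.6, 20.9 and 16.5 CPM on day 0 and, on day 3, 33.8, 32.4 and 30.4 CPM (WT, Per1KO, Per2KO, the order used for any 3 values below). Per2 was at 9.74, 6.59 and 3.5 CPM on day 0 and, on day 3, 11.5, 9.44 and 9.13 CPM. Transcript counts do not show whether an edit is present. Markers of the line were present in all 6 libraries: Myod1, which specifies muscle, lay between 58.7 and 164 CPM, and Des, the muscle intermediate filament, rose from 2456, 1604 and 1247 CPM to 4347, 2662 and 2666 CPM (0.88 ± 0.22, adjusted p = 0.0180). Per the design text n is 1 for each population and day, so the 3 populations stand in for replicates of a day, and p-values measure only the spread between these cultures. The populations are also not equally independent. Across the tested genes, which are not replicates, the day 3 against day 0 change correlated between Per1KO and Per2KO with a Pearson coefficient of 0.929 (Spearman 0.873), against 0.670 (0.492) between WT and Per1KO and 0.646 (0.465) between WT and Per2KO. Des lost its call without Per1KO (adjusted p = 0.130). Des lost its call without Per2KO (adjusted p = 0.164).

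Of 13324 genes tested, 4664 (35.0%) passed an adjusted p of 0.05 in edgeR's quasi-likelihood test, 2418 (18.1%) higher and 2246 (16.9%) lower on day 3. Counts of list members that rose or fell below are to be read against these shares. With library totals in place of TMM scaling the split was 1945 higher and 2989 lower, since that scaling moves the median log2 change of all tested genes from -0.01 to -0.12. The direction was shared by all 3 populations for 4507 of the called genes, 2319 higher and 2188 lower. A gene is called switched on or off below when it also changed at least 2-fold the same way in each population (log2 CPM with a prior count of 2): 719 genes (5.40%) were switched on and 408 (3.06%) off. The switched-on genes held 2.52%, 1.53% and 1.43% of the tested CPM on day 0 and 12%, 7.70% and 7.32% on day 3. The switched-off genes went from 2.53%, 3.21% and 2.90% to 0.769%, 0.888% and 0.901%. Among the switched-on genes 656 were protein coding and 43 were long non-coding, and 67 had at most 3 counts in every day 0 library, where the change runs from near nothing. None of the switched-off genes was at that floor in every library on day 3. Without the shallow WT libraries 7684 genes were called and 1260 and 817 were switched on and off in the knockouts, and without Per1KO or Per2KO 1147 and 1440 were called, of which 607 and 660 were switched on and 297 and 373 off. These fits have 2 residual degrees of freedom. The totals thus depend strongly on which population is left out, and calls of single genes lost when a population is left out, or with only the 6 libraries of days 0 and 3, are given in the paragraph that describes the gene. In bulk RNA, more or fewer cells of a kind and more or less RNA per cell cannot be told apart.

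**Figure D1:**
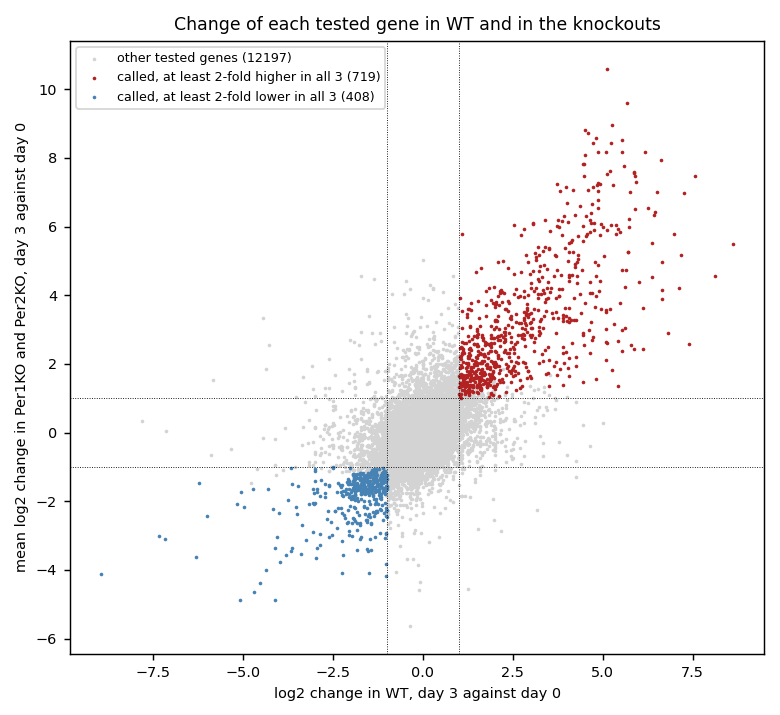
Log2 change from day 0 to day 3 of each of the 13324 tested genes in WT (horizontal axis) against the mean change in Per1KO and Per2KO (vertical axis), with dotted lines at 2-fold. The 719 switched-on genes (red) reach much further from the origin than the 408 switched-off genes (blue), and grey points fill the quadrants where WT and the knockouts moved apart.

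Near the 2-fold limit the classes run into each other. Kdm7a, a histone demethylase, was just inside, with log2 changes of 1.0, 1.65 and 1.02, and Wdr44, just outside because its WT change is just under the limit, had 1.0, 1.04 and 1.56. On the falling side Ptma, a nuclear acidic protein, was just inside with -1.0, -1.45 and -1.03, and Suv39h1, a histone methyltransferase, just outside with -1.42, -1.55 and -1.0.

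The regulators of muscle differentiation moved in part. Of 24 tested members of the list of 28 myogenic transcription factors and co-factors, 14 rose, 1 fell and 7 were switched on, with a median log2 change of 0.71 against -0.01 over all tested genes. Without WT, Per1KO or Per2KO, 17, 8 and 11 rose. Myog (ENSMUSG00000026459, chromosome 1, 134289989 to 134292548, plus strand), the factor that drives terminal differentiation, went from 124 to 868 CPM in WT, from 5.35 to 262 in Per1KO and from 2.91 to 226 in Per2KO. All 3 day 3 values lay above all 3 day 0 values, and on day 0 the WT level was already 23.1 times that of Per1KO and 42.5 times that of Per2KO. The fitted log2 fold change was 4.65 ± 0.77 (SE from the fit of all 9 libraries, adjusted p = 0.00367). Mef2c, a MEF2 factor of muscle, went from 15.8 to 132 CPM in WT, from 13 to 113 in Per1KO and from 9.13 to 105 in Per2KO, a change of nearly the same size in all 3 (3.24 ± 0.15, adjusted p = 3.59e-05). Mef2a and Mef2d, MEF2 factors found in many tissues, rose by less, 1.31 ± 0.14 and 0.81 ± 0.12 on the log2 scale (adjusted p = 0.000503 and 0.00221). Myog and Mef2d lost their calls without Per1KO (adjusted p = 0.117 and 0.0662). Mef2d lost its call without Per2KO (adjusted p = 0.0524).

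The factors that act before Myog did not pass the test. Myod1 was at 155, 87.3 and 58.7 CPM on day 0 and, on day 3, 164, 119 and 124 CPM (0.51 ± 0.21, adjusted p = 0.0987), and its WT value on day 0 lay above both knockouts' values on day 3. Myf5, the other early factor, was at 67.9, 53.1 and 131 CPM on day 0 and, on day 3, 61.3, 59 and 66.2 CPM, with the highest value of all in Per2KO on day 0 (-0.35 ± 0.22, adjusted p = 0.254). Pax7, which marks satellite cells, the stem cells of muscle, stayed between 2.32 and 6.75 CPM, and Myf6 had at most 23 reads in any library. Vgll2, a TEAD co-factor of muscle, was the member that fell, from 75.7, 33.1 and 29.3 CPM to 63.7, 20.2 and 21.1 CPM, by 1.19-, 1.64- and 1.39-fold. Smyd1, a muscle methyltransferase needed for sarcomere assembly, rose from 28.1, 16.3 and 10.7 CPM to 202, 81.8 and 70 CPM (2.64 ± 0.19, adjusted p = 0.000110). Csrp3, a LIM protein of muscle, and Ankrd2, a stretch-responsive repeat protein, rose from at most 8 reads per library. Csrp3 reached 104, 12.7 and 10.5 CPM and Ankrd2 85.2, 33.1 and 24 CPM on day 3, so WT was highest for both. Vgll2 lost its call without Per1KO (adjusted p = 0.391). Vgll2 lost its call without Per2KO (adjusted p = 0.212). Vgll2 lost its call with the 6 libraries only (adjusted p = 0.0753). Myod1 passed without WT (adjusted p = 0.00865).

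**Figure D2:**
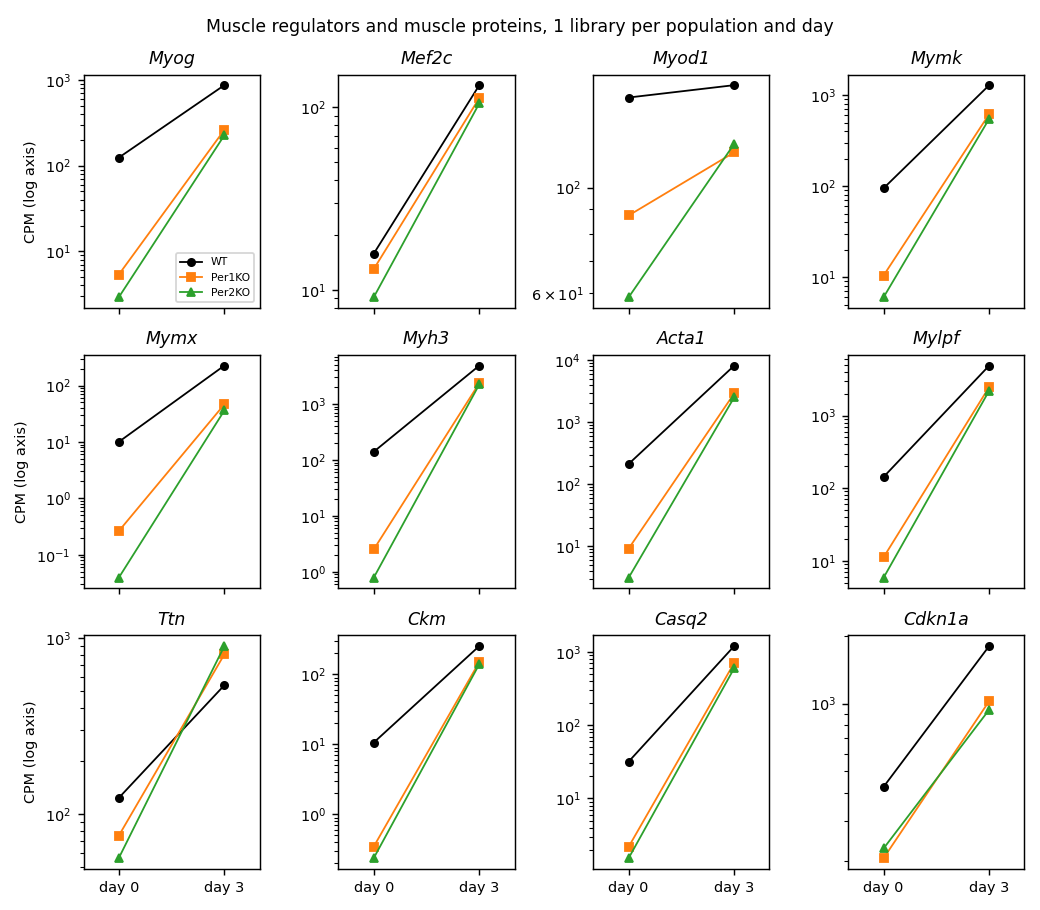
CPM on a log axis (separate scale in each panel) on day 0 and day 3 for 12 genes, with 1 line per population (WT black circles, Per1KO orange squares, Per2KO green triangles). The lines for Myod1, which did not pass the test, are the flattest in WT (155 to 164 CPM); for Myog, WT starts at 124 CPM against 5.35 and 2.91 CPM and ends at 868 CPM against 262 and 226 CPM.

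The fusion genes rose in part, with 47.8% of the tested members called against 35.0% of all tested genes. Of 23 tested members of 26, 10 rose and 1 fell (6 and 1 without Per1KO, 7 and 1 without Per2KO), 6 were switched on and 1 off, with a median of 0.45. Mymk (ENSMUSG00000009214, chromosome 2, 27061636 to 27072179, minus strand), which encodes myomaker, the membrane protein needed on both fusing cells, went from 94.9 to 1287 CPM in WT, from 10.4 to 619 in Per1KO and from 6.02 to 549.8 in Per2KO (5.17 ± 0.73, adjusted p = 0.00182). The lowest day 3 value, in Per2KO, was 5.79 times the highest day 0 value, in WT. Mymx, the micropeptide myomixer that completes fusion, was at 10, 0.264 and 0.0394 CPM on day 0 and, on day 3, 225, 46.5 and 36.1 CPM (adjusted p = 0.00126); its Per2KO value on day 0 rests on 2 reads, so no fold is given. Cav3, the caveolin of muscle membranes, had 10, 1 and 0 reads on day 0 and 280, 629 and 614 reads on day 3 and rose in all 3. Dock5, an activator of the GTPase Rac, was the member switched off, from 93.9, 75.1 and 71.6 CPM to 34.5, 32.8 and 30.8 CPM (-1.27 ± 0.13, adjusted p = 0.000385). Mymk and Mymx lost their calls without Per1KO (adjusted p = 0.0804 and 0.0750).

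The 2 lists with the largest medians were those of the contractile filaments. The list of 18 myosin genes holds heavy and light chains and also the light chain kinases Mylk2 and Mylk4. Of its 15 tested members, 14 rose, Mylk4 among them, none fell and 13 were switched on (14, 11 and 13 rose with WT, Per1KO or Per2KO left out). Mylk2 was the member not called. The median log2 change was 7.12, or 7.10 with Myl2, which had no read on day 0, at its lower bound. The medians per population were 4.52 in WT, 7.01 in Per1KO and 7.97 in Per2KO. Summed over the list, CPM went from 393 to 12530 in WT, from 57.7 to 6680 in Per1KO and from 39.7 to 6097 in Per2KO, so the knockouts began lower, changed more and ended at 53.3% and 48.7% of the WT level.

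Myh3 (ENSMUSG00000020908, chromosome 11, 67078300 to 67102291, plus strand), embryonic myosin heavy chain, went from 140.0 to 4851 CPM in WT, from 2.51 to 2359.7 in Per1KO and from 0.787 to 2236 in Per2KO. WT was 178 times Per2KO on day 0 and 2.17 times on day 3. Its fitted log2 fold change was 8.18 ± 1.52 (adjusted p = 0.00588). Mylpf, the fast regulatory light chain, and Myl4, the light chain of embryonic and atrial muscle, followed the same order. Mylpf was at 143, 11.1 and 5.83 CPM on day 0 and, on day 3, 4889.6, 2481 and 2205 CPM. Myl4 was at 24.7, 1.14 and 0.728 CPM on day 0 and, on day 3, 1276, 792 and 711 CPM. The adult and perinatal heavy chains were also read on day 3 but at a far lower level. Myh8, the perinatal chain, reached 35.2, 26.9 and 16.4 CPM, and Myh4, a fast adult chain, 37, 20.8 and 15.1 CPM, each from at most 11 reads on day 0. Myh7, the slow chain, reached 31.6, 34.7 and 21.1 CPM. These heavy chains share 30.4% to 38.5% of their 31-base stretches with other genes, so reads may have been divided between them. Myl2, the slow and ventricular light chain, had 0, 0 and 0 reads on day 0 and 15, 1119 and 1013 reads on day 3, and was lower in WT than in the knockouts on day 3, at 2.74 CPM against 23.2 and 21.0 CPM. Myh3, Mylpf and Myl4 lost their calls without Per1KO (adjusted p = 0.0725 to 0.139).

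Of 23 tested members of 24 thin filament genes, 21 rose, none fell and 21 were switched on (21, 16 and 20 rose with WT, Per1KO or Per2KO left out), with a median of 4.47 (3.94, 4.64 and 4.96 by population). Their summed CPM went from 2675, 2185 and 1896 to 29040, 15115 and 14025. Acta1 (ENSMUSG00000031972, chromosome 8, 123891769 to 123894751, minus strand), skeletal actin, went from 212 to 8173 CPM in WT, from 9.17 to 2916 in Per1KO and from 3.11 to 2523 in Per2KO (7.28 ± 1.17, adjusted p = 0.00318). Its mean gain in CPM was the second largest of all called genes, after H19, and on day 3 WT stood 2.80 and 3.24 times above the knockouts. Actc1, the actin of embryonic muscle and heart, was at 64.8, 1.38 and 0.551 CPM on day 0 and, on day 3, 1833, 367 and 356 CPM (6.81 ± 1.08, adjusted p = 0.00300). Acta2, the actin of smooth muscle that myoblasts also make, behaved otherwise: it was at 619.6, 727 and 614 CPM on day 0 and, on day 3, 3275, 3448 and 3208 CPM, with hardly any difference between the populations on either day (2.35 ± 0.28, adjusted p = 0.000753). Tpm2, the beta tropomyosin, was likewise well read before differentiation and rose from 381, 296 and 252 CPM to 3328, 1897 and 1792 CPM (2.89 ± 0.19, adjusted p = 8.24e-05). Tnnc2, fast troponin C, rose from at most 5 reads per library to 11.7, 30.3 and 30.1 CPM; it overlaps Ube2c, a gene that fell, on the other strand, and the use of strand in counting is not stated. Acta1 and Actc1 lost their calls without Per1KO (adjusted p = 0.107 and 0.103).

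The scaffold of the sarcomere also rose for the most part. Of 31 tested members of 34 Z-disc, M-band and titin genes, 26 rose, none fell and 23 were switched on (28, 20 and 22 rose with each population left out in turn), with a median of 2.33. Ttn, the giant spring protein titin, went from 123 to 539 CPM in WT, from 75.3 to 807 in Per1KO and from 56.2 to 899.8 in Per2KO (3.13 ± 0.38, adjusted p = 0.000898); here the knockouts ended above WT. Actn2, the actinin of the muscle Z-disc, went the other way, with 129 CPM in WT on day 3 against 7.27 and 6.81 CPM in the knockouts. Myoz2, a calcineurin-binding Z-disc protein, reached 103, 33.4 and 28.6 CPM from at most 12 reads. Tcap, the titin cap, had 0, 0 and 0 reads on day 0 and 48, 140 and 76 reads on day 3. Myot, which encodes myotilin, had at most 8 reads in any library and was not tested.

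The promoters of 3 muscle genes are shown because each holds an E-box of the form CAGCTG, the letters that MyoD-family proteins are known to bind. The stretches run from base -150 to base -1 before the RefSeq start on GRCm38.p6, and capitals mark CAGCTG, which reads the same on both strands. Chrna1 encodes the alpha subunit of the muscle acetylcholine receptor, Mylpf the fast light chain and Tnni1 slow troponin I, whose promoter is that of the upstream of 2 listed starts.
Chrna1, chr2:73580339-73580488, minus strand: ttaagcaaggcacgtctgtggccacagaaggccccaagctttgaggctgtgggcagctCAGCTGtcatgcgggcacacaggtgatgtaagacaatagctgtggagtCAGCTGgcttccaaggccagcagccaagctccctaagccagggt
Mylpf, chr7:127211458-127211607, plus strand: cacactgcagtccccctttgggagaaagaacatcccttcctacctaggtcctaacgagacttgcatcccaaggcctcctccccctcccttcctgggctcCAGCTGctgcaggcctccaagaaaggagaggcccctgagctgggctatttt
Tnni1, chr1:135799271-135799420, plus strand: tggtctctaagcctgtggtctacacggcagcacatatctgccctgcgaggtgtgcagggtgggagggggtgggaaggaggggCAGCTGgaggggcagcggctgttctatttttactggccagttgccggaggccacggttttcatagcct
The copies lie at -92 and -44 in Chrna1, -51 in Mylpf and -68 in Tnni1, given as the position of the motif's first base. In windows of 300 bases (250 before to 50 after each start), CAGCTG was found in 28.5% of 677 promoters of 479 switched-on genes, 11.7% of 358 promoters of 292 switched-off genes and 15.6% of 12228 promoters of tested genes. In the thin filament list 12 of 26 promoters (46.2%) held it, and in the myosin list 6 of 19 (31.6%). The MEF2 motif, searched by name on both strands, was in 5.76% of the promoters of switched-on genes against 1.82% of all tested and 2.51% of switched-off genes. A match describes letters and is not a site of binding. Tnni1 lost its call without Per1KO (adjusted p = 0.0652).

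Isoform exchange could be followed in 25 pairs of genes, each with a muscle and a widespread member. The muscle members included 20 that rose and 1 that fell (median 3.62), the widespread members 2 that rose and 10 that fell (median -0.36). Per kilobase of transcript, the muscle member's share of its pair rose in all 3 populations in 23 of 25 pairs. Acta1 went from 6.42, 0.351 and 0.141% to 80.9, 63.2 and 60.9% of its pair with Actb, the actin of all cells, which fell (-0.59 ± 0.17, adjusted p = 0.0297). The share of Mylpf beside Myl12a, a non-muscle light chain, went from 30.7, 3.64 and 2.16% to 91.7, 85.7 and 83.6%. Tpm2 beside Tpm4, the tropomyosin of stress fibres, went from 29.6, 20.4 and 19.7% to 84, 77.1 and 75.6%. For Ckm, muscle creatine kinase, WT ended well below the knockouts: its share beside the brain form Ckb went from 7.06, 0.49 and 0.454% to 38.5, 73.8 and 76.2%. Ckb was at 144, 72.4 and 53.6 CPM on day 0 and, on day 3, 422, 55.5 and 45.5 CPM. It was not called in the main fit, and its fitted change turned from a rise to a fall without WT. The 2 exceptions were Cox7a1 beside Cox7a2, subunits of cytochrome oxidase, and Pfn2 beside Pfn1, the profilins. Pfn2, listed as the muscle member, fell (-0.64 ± 0.14, adjusted p = 0.00976). Actb, Actg1 and Eno1 share 35.1%, 57.1% and 73.0% of their 31-base stretches with other genes, which leaves their levels uncertain. Actb, Tpm4, Cox7a2, Pfn2 and Actg1 lost their calls without Per1KO (adjusted p = 0.118 to 0.271). Actb, Tpm4, Cox7a2 and Pfn2 lost their calls without Per2KO (adjusted p = 0.0863 to 0.169). Myl12a and Pfn1 passed without WT (adjusted p = 0.00180 and 0.00656).

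**Figure D3:**
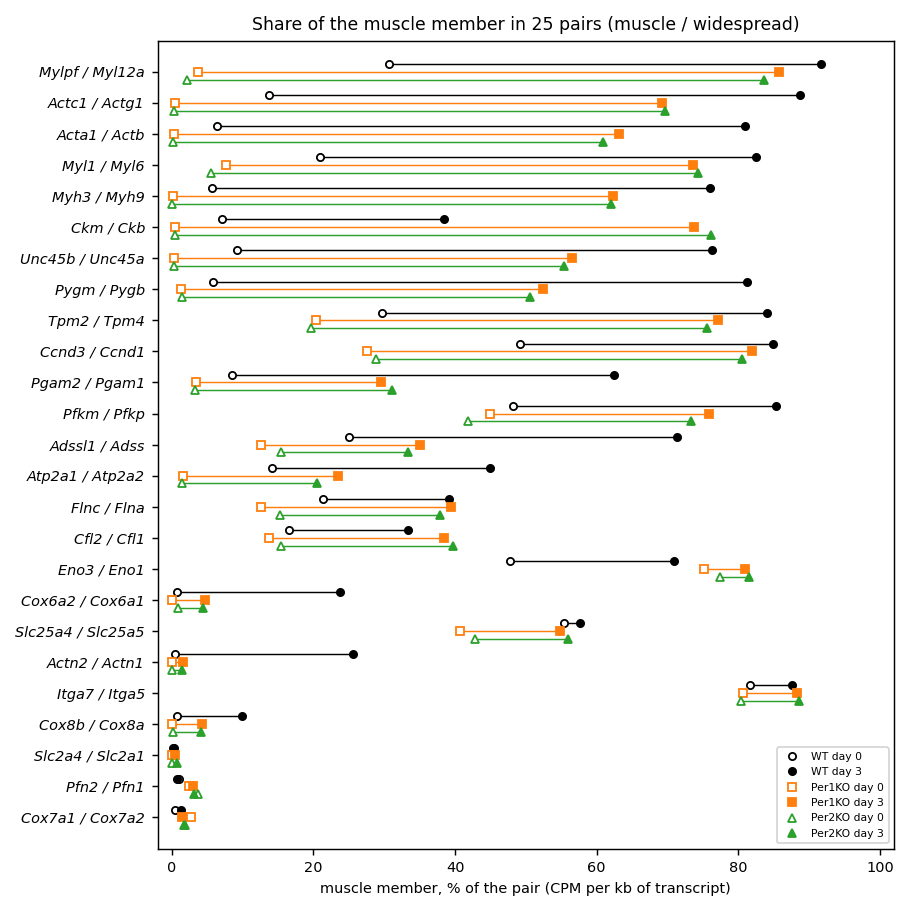
Muscle member's share of each of 25 isoform pairs, in % of the pair's CPM per kilobase of transcript, on day 0 (open symbols) and day 3 (filled), by population. Bars run to the right in 23 pairs for all 3 populations; for Acta1 beside Actb they end at 80.9%, 63.2% and 60.9%.

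The machinery that couples excitation to contraction was for the most part higher on day 3. Of 27 tested members of 33, 24 rose, 1 fell and 20 were switched on, with a median of 2.36, and 25, 22 and 23 rose with each population left out in turn. Casq2, a calsequestrin that stores calcium in the sarcoplasmic reticulum, went from 31.8 to 1201 CPM in WT, from 2.19 to 708 in Per1KO and from 1.54 to 599.9 in Per2KO (7.09 ± 0.92, adjusted p = 0.00128). Cacna1s, the voltage sensor of the transverse tubule, was at 9.46, 0.304 and 0.157 CPM on day 0 and, on day 3, 217, 136 and 117 CPM (6.9 ± 1.03, adjusted p = 0.00225). Atp2a1, the fast-muscle calcium pump, rose from 45.2, 5.15 and 4.11 CPM to 453, 193 and 169 CPM. Its widespread relative Atp2a2, already high on day 0, also rose, from 445, 506 and 472 CPM to 907, 1027 and 1067 CPM, and stayed the more abundant per kilobase of the pair in all 3. Pvalb and Sln, which buffer calcium and restrain the pump in adult muscle, had at most 11 and 3 reads. Asph, a large gene with several products in the reticulum, was the member that fell (-0.46 ± 0.11, adjusted p = 0.0162). Casq2, Cacna1s and Asph lost their calls without Per1KO (adjusted p = 0.0591 to 0.262). Atp2a2 and Asph lost their calls without Per2KO (adjusted p = 0.0531 and 0.138). Asph lost its call with the 6 libraries only (adjusted p = 0.0618).

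Genes of the postsynaptic membrane rose in part. Of 17 tested members of 19 neuromuscular junction genes, 11 rose, 1 fell (7 and 0 without Per1KO, 8 and 0 without Per2KO) and 6 were switched on, with a median of 0.87. Chrng, the fetal gamma subunit of the acetylcholine receptor, went from 45.1 to 496 CPM in WT, from 10.7 to 208 in Per1KO and from 10.4 to 189.7 in Per2KO (3.96 ± 0.21, adjusted p = 4.23e-05), while the adult subunit gene Chrne had at most 5 reads. Chrna1 was high before differentiation and rose by less than 2-fold, from 860.4, 856 and 823 CPM to 1633, 1319 and 1353 CPM (0.76 ± 0.13, adjusted p = 0.00328). Lrp4, the agrin receptor, was at 37.1, 26.8 and 14.9 CPM on day 0 and, on day 3, 178, 351 and 319 CPM, highest in the knockouts (3.42 ± 0.43, adjusted p = 0.00104). Etv5, an ETS factor, fell (-1.0 ± 0.32, adjusted p = 0.0449). Chrna1, Lrp4 and Etv5 lost their calls without Per1KO (adjusted p = 0.0531 to 0.258). Chrna1 and Etv5 lost their calls without Per2KO (adjusted p = 0.0843 and 0.236).

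In the dystrophin-glycoprotein complex, which ties the cytoskeleton to the matrix, 12 of 20 members rose, 3 fell (6 and 0 without Per1KO, 6 and 0 without Per2KO) and 5 were switched on, with a median of 0.75. Sgca, a sarcoglycan of muscle, was among those switched on, at 23.9, 11.4 and 9.76 CPM on day 0 and, on day 3, 133, 90.9 and 87.1 CPM (2.87 ± 0.25, adjusted p = 0.000232). Dmd itself, the gene of dystrophin, was barely read, with 0, 1 and 0 reads on day 0 and 1, 33 and 27 reads on day 3. The members that fell, Dtnb, Pomt1 and Sntb2, are a dystrobrevin, a mannosyltransferase and a syntrophin found outside muscle too, and changed by -0.44 to -0.95 on the log2 scale. Dtnb, Pomt1 and Sntb2 lost their calls without Per1KO (adjusted p = 0.113 to 0.212). Dtnb, Pomt1 and Sntb2 lost their calls without Per2KO (adjusted p = 0.153 to 0.195). Pomt1 and Sntb2 lost their calls with the 6 libraries only (adjusted p = 0.0651 and 0.0953).

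Genes of muscle energy supply rose in more cases than they fell. Of 30 tested members of 36 muscle energy genes, 17 rose, 1 fell (9 and 0 without Per1KO, 13 and 0 without Per2KO) and 11 were switched on, with a median of 0.84 (1.36, 0.76 and 0.54 by population). Ckm went from 10.6 to 255 CPM in WT, from 0.345 to 151 in Per1KO and from 0.236 to 140.3 in Per2KO (6.81 ± 1.15, adjusted p = 0.00393). Mb, myoglobin, the oxygen store of muscle, rose from at most 18 reads to 255, 50.2 and 43.2 CPM. Pygm, muscle glycogen phosphorylase, rose from 3.95, 0.791 and 0.768 CPM to 164, 60 and 50.3 CPM (5.92 ± 0.27, adjusted p = 3.59e-05). WT was highest on day 3 for all of these. Slc2a1, the glucose transporter of growing cells, fell from 253, 250 and 238 CPM to 205, 95 and 88 CPM (-1.05 ± 0.21, adjusted p = 0.00809), and Slc2a4, the insulin-dependent transporter of adult muscle, stayed at or below 34 reads and did not pass. Ckm and Slc2a1 lost their calls without Per1KO (adjusted p = 0.111 and 0.120). Ckm and Slc2a1 lost their calls without Per2KO (adjusted p = 0.0557 and 0.101). Slc2a4 passed without WT (adjusted p = 0.0429). For Mb, the fits with a population or the day 5 libraries left out were not examined.

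Of 75 nuclear genes of the respiratory chain, 9 rose and none fell, 12% against 35.0% of all tested genes called. Their median change was 0.54 in WT, 0.02 in Per1KO and 0.01 in Per2KO, and without WT 13 rose and 14 fell. With either knockout left out, none rose or fell. Ndufv3, a complex I subunit, rose most, from 61.6, 45 and 40.7 CPM to 113, 65.2 and 64.7 CPM (0.69 ± 0.11, adjusted p = 0.00304). Among the 13 protein genes of the mitochondrial genome 6 rose and none fell (3 and 0 without Per1KO, 2 and 0 without Per2KO), with a median of 0.58. Of these, mt-Nd5, also a complex I subunit, was at 710.0, 1119.8 and 989 CPM on day 0 and, on day 3, 1915, 1901 and 2314 CPM (1.13 ± 0.18, adjusted p = 0.00270), on the strand opposite mt-Nd6. Ndufv3 lost its call without Per1KO (adjusted p = 0.0555). Ndufv3 and mt-Nd5 lost their calls without Per2KO (adjusted p = 0.0619 and 0.0551).

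Nearly all genes of cell division fell. Of 62 mitosis and cytokinesis genes, all tested, 61 fell, none rose and 44 were switched off, with a median log2 change of -1.51 (-1.63, -1.62 and -1.26 by population). Of 51 DNA replication genes, also all tested, 47 fell, none rose and 18 were switched off, with a median of -1.40. By population the replication medians were -0.78, -1.76 and -1.32, the smallest in WT, while for mitosis WT and Per1KO were alike. With WT, Per1KO or Per2KO left out, 61, 53 and 58 mitosis genes fell and 50, 13 and 24 replication genes. The falls were partial: division transcripts remained well read on day 3 in all 3 populations. The share of cells still cycling was not measured.

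Cdk1 (ENSMUSG00000019942, chromosome 10, 69335146 to 69352938, minus strand), the kinase that starts mitosis, fell from 181 to 79 CPM in WT, from 349 to 99.2 in Per1KO and from 239 to 106 in Per2KO (-1.4 ± 0.23, adjusted p = 0.00323). The groups do not overlap, and the day 3 values lie within 79.0 to 106 CPM although Per1KO began at 1.92 times the WT level. Top2a, the topoisomerase that untangles chromosomes, fell from 473 to 147 CPM in WT, from 751 to 220.1 in Per1KO and from 551 to 232 in Per2KO (-1.58 ± 0.15, adjusted p = 0.000310). Mki67, the antigen Ki-67 of cycling cells, fell from 269, 319.9 and 215 CPM to 69, 133 and 138 CPM (-1.29 ± 0.23, adjusted p = 0.00447), most in WT and by under 2-fold in Per2KO, so it was not switched off in all 3. Mybl2, a transcription factor of the late cell cycle, had the largest fall of the mitosis list, from 16.7, 40.1 and 29.4 CPM to 5.47, 5.73 and 6.0 CPM (-2.32 ± 0.23, adjusted p = 0.000370). In the replication list Cdt1, which licenses origins, fell most, from 49.3, 57.1 and 57.2 CPM to 14.2, 11.6 and 9.89 CPM (-2.23 ± 0.18, adjusted p = 0.000149), followed by Dscc1 and Mcm10. Mcm5, part of the replicative helicase, fell from 112, 138 and 114 CPM to 45.2, 34.1 and 31 CPM (-1.72 ± 0.33, adjusted p = 0.00662). Cdk1, Mki67 and Mcm5 lost their calls without Per1KO (adjusted p = 0.0570 to 0.129). Mcm5 lost its call without Per2KO (adjusted p = 0.0516).

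The promoters of 3 mitotic genes are shown because each holds, close to the start, the pair of motifs known from late cell cycle genes: CCAAT, the letters of the NF-Y site, and TTTGAA, those of the CHR element. Capitals mark both, read on either strand. Cdc20 encodes the activator of the complex that starts anaphase.
Cdk1, chr10:69352913-69353062, minus strand: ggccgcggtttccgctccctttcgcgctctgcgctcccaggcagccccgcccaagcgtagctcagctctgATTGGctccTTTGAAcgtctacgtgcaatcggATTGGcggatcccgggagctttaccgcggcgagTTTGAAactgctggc
Cdc20, chr4:118437344-118437493, minus strand: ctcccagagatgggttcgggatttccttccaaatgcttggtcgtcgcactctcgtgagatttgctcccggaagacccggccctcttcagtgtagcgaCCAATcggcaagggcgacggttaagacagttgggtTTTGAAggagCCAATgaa
Top2a, chr11:99024190-99024339, minus strand: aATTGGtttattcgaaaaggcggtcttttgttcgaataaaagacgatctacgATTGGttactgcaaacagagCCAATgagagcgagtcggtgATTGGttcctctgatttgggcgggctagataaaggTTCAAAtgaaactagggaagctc
TTTGAA lies at -71 and -15 in Cdk1, -18 in Cdc20 and -23 in Top2a, there on the other strand. Of 58 promoters of 53 mitosis genes found in the RefSeq table, 41 (70.7%) held TTTGAA within the 300 bases and 43 (74.1%) CCAAT, where 11.9% and 37.6% of the promoters of all tested genes did. DNA replication genes differed, with TTTGAA in 10.6% of 47 promoters and CCAAT in 57.4%, and with TTTNGCGC, one form of the E2F motif, in 12 (25.5%) against 2.36% of all tested. Promoters of the switched-off genes held TTTGAA in 26.5%, CCAAT in 43.3% and TTTNGCGC in 4.47% of cases.

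The controls of the cycle moved in both directions. Of 32 tested members of 35, 8 rose and 14 fell (2 and 0 without Per1KO, 3 and 4 without Per2KO), with a median of -0.41. Cdkn1a, the inhibitor p21 that blocks cyclin-dependent kinases, went from 427 to 1802 CPM in WT, from 206 to 1026 in Per1KO and from 227 to 939.8 in Per2KO. The lowest day 3 value, in Per2KO, was above the highest day 0 value, in WT, with a log2 fold change of 2.14 ± 0.17 (adjusted p = 0.000165). Its relative Cdkn1b (p27) rose by 1.16-, 1.38- and 1.22-fold (adjusted p = 0.0486), and Cdkn1c (p57) was read mainly in WT, with 4, 1 and 10 reads on day 0 and 102, 4 and 7 reads on day 3, and was not tested. Rb1, the retinoblastoma protein that holds E2F factors back, rose from 68.9, 59 and 53.2 CPM to 115, 157 and 159.6 CPM (1.23 ± 0.22, adjusted p = 0.00425), and its relative Rbl1 (p107) fell from 54.5, 88.4 and 73.4 CPM to 29.7, 26.8 and 28.7 CPM (-1.33 ± 0.22, adjusted p = 0.00303). Of the D cyclins 1 fell and 1 rose. Ccnd1 fell from 212, 348 and 226 CPM to 89.9, 85.4 and 92.8 CPM (-1.51 ± 0.25, adjusted p = 0.00333) and Ccnd3, known to persist in muscle, rose from 211, 137 and 94.6 CPM to 524, 399 and 396 CPM (1.61 ± 0.29, adjusted p = 0.00489). The Ccnd3 share of the pair per kilobase went from 49.1, 27.6 and 28.9% to 85, 81.9 and 80.5%; it overlaps Bysl on the other strand. Replication-dependent histones are poorly seen in poly(A) RNA: 3 of 32 could be tested and all 3 rose, among them Hist1h2bc, from 6.07, 5.72 and 5.93 CPM to 19.7, 20.9 and 19.3 CPM. Cdkn1b, Rb1, Rbl1, Ccnd1 and Ccnd3 lost their calls without Per1KO (adjusted p = 0.0535 to 0.469). Cdkn1b and Rb1 lost their calls without Per2KO (adjusted p = 0.294 and 0.0557). Cdkn1b lost its call with the 6 libraries only (adjusted p = 0.145). Bysl passed without WT (adjusted p = 0.00207).

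**Figure D4:**
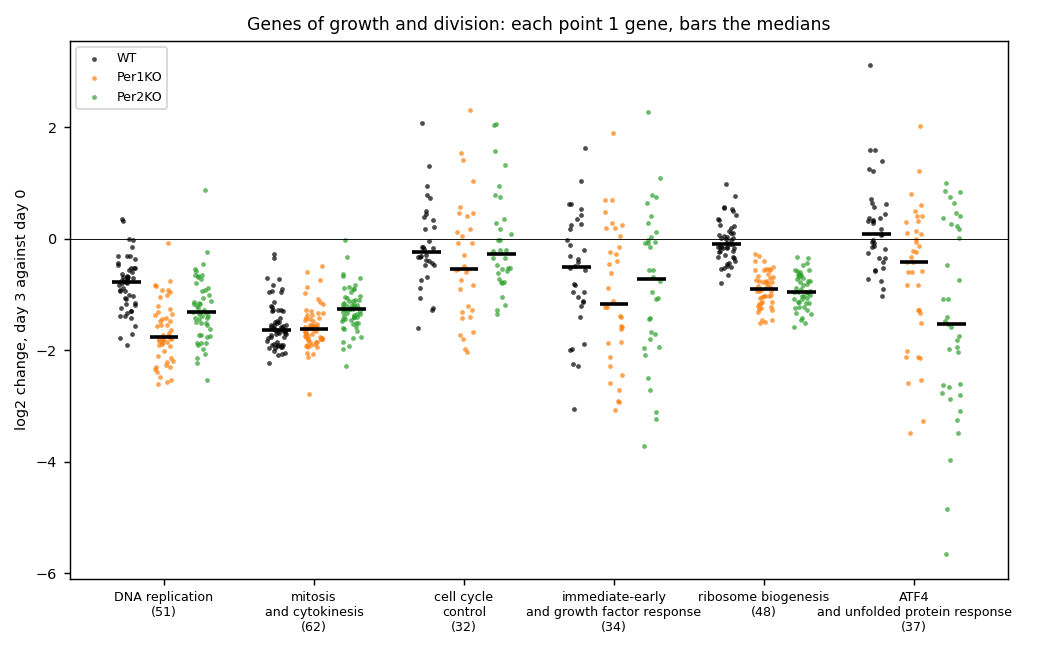
Log2 change from day 0 to day 3 of each tested gene in 6 lists (number of genes in brackets), by population, with bars at the medians. Nearly all points of the replication and mitosis lists lie below 0 in every population, whereas ribosome biogenesis has a median of -0.09 in WT against -0.89 and -0.95 in the knockouts.

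Among transcripts of the growth response, more fell than rose. Of 34 tested members of 35 immediate-early and growth factor response genes, 16 fell, 2 rose and 9 were switched off, with a median of -0.77 (20, 7 and 10 fell with each population left out in turn). Hmga2, a chromatin protein of proliferating and embryonic cells, fell from 145 to 17.3 CPM in WT, from 339 to 40.5 in Per1KO and from 312 to 47.6 in Per2KO (-2.93 ± 0.14, adjusted p = 3.59e-05). Its day 3 values, 17.3 to 47.6 CPM, lie far below its day 0 values, 145 to 339 CPM. Myc, which drives growth, fell from 62.8, 72.8 and 159 CPM to 32.3, 27.6 and 28 CPM, with the largest change in Per2KO (-1.72 ± 0.42, adjusted p = 0.0175). Plaur, the urokinase receptor, fell from 87.3, 110.0 and 117 CPM to 22.1, 14.4 and 13.5 CPM (-2.71 ± 0.21, adjusted p = 0.000147) and Areg, an EGF receptor ligand, from 10.6, 14.1 and 15.4 CPM to 5.11, 1.82 and 1.59 CPM (-2.59 ± 0.39, adjusted p = 0.00208). Fos did not pass and moved apart, with 4.24, 13.2 and 10.7 CPM on day 0 and, on day 3, 6.57, 5.63 and 5.01 CPM. The members that rose were Spry1 and Spry2, feedback inhibitors of receptor tyrosine kinases. Myc, Areg and Spry2 lost their calls without Per1KO (adjusted p = 0.0559 to 0.229). Myc and Spry2 lost their calls without Per2KO (adjusted p = 0.0706 and 0.196). Spry2 lost its call with the 6 libraries only (adjusted p = 0.0512). Fos passed without WT (adjusted p = 0.000460).

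Among the inhibitors of myogenic bHLH factors 5 of 22 tested rose and 5 fell (3 and 2 without Per1KO, 5 and 2 without Per2KO), so the list moved in no common direction (median 0.05). The Id proteins, which bind away the E-protein partners of MyoD, fell: Id3 was at 40.1, 42.3 and 22.7 CPM on day 0 and, on day 3, 7.3, 6.4 and 6.21 CPM (-2.4 ± 0.30, adjusted p = 0.000989). Id2 was at 25.8, 31.1 and 11.2 CPM on day 0 and, on day 3, 13.1, 5.11 and 3.81 CPM (-1.75 ± 0.39, adjusted p = 0.0124), and Id1 at 22.5, 28.4 and 17.2 CPM on day 0 and, on day 3, 15.7, 10 and 8.15 CPM (-1.08 ± 0.20, adjusted p = 0.00588). Twist2, a bHLH repressor of mesenchyme, fell as well (-1.65 ± 0.28, adjusted p = 0.00344). Hes6, a Hes protein known to favour differentiation, rose from 50.6, 43.1 and 27 CPM to 175, 91.2 and 81.8 CPM (1.5 ± 0.19, adjusted p = 0.000966), and so did Heyl, a Notch target, from 36.6, 1.2 and 1.1 CPM to 79.7, 5.78 and 6.66 CPM (1.87 ± 0.35, adjusted p = 0.00590), from a WT level 30.6 and 33.2 times that of the knockouts. Id2, Id1, Twist2 and Heyl lost their calls without Per1KO (adjusted p = 0.0647 to 0.163). Id2, Id1 and Twist2 lost their calls without Per2KO (adjusted p = 0.0625 to 0.0732).

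In ribosome biogenesis and the ATF4 response the median was below that of WT in both knockouts. Of 48 ribosome biogenesis genes 29 fell and none rose, but the median was -0.09 in WT against -0.89 and -0.95. All 48 fell without WT, and 1 with either knockout left out. Nop56, a box C/D snoRNP protein, was at 69.5, 187 and 199 CPM on day 0 and, on day 3, 58.9, 66.2 and 69.7 CPM (-1.16 ± 0.29, adjusted p = 0.0191). Of 37 genes of ATF4 and the unfolded protein response 11 fell and 4 rose, with medians of 0.09, -0.41 and -1.53, and without Per1KO or Per2KO none fell. The share called in this list was 40.5%, against 35.0% of all tested genes. Trib3, a pseudokinase induced by ATF4, was at 92.4, 55.5 and 276 CPM on day 0 and, on day 3, 84.8, 4.91 and 5.4 CPM (-3.85 ± 1.16, adjusted p = 0.0368). WT hardly moved, and Per2KO began at 2.99 times the WT level. Shmt2, the mitochondrial serine hydroxymethyltransferase, was switched off in all 3, from 386, 581 and 799.7 CPM to 189.7, 97 and 83.7 CPM (-2.45 ± 0.49, adjusted p = 0.00782). Aldh1l2 and Bcat1, of folate and branched-chain amino acid metabolism, were too, with WT falling least in each. Whether these responses differ between WT and the knockouts was not tested here. Dnajb9, an endoplasmic reticulum chaperone, rose evenly, from 17.2, 19.4 and 25.2 CPM to 45.6, 45.1 and 46 CPM (1.14 ± 0.14, adjusted p = 0.000783). Nop56, Trib3, Shmt2, Aldh1l2 and Bcat1 lost their calls without Per1KO (adjusted p = 0.155 to 0.322). Nop56, Trib3, Shmt2, Aldh1l2 and Bcat1 lost their calls without Per2KO (adjusted p = 0.0767 to 0.243). Trib3 lost its call with the 6 libraries only (adjusted p = 0.102).

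Matrix genes moved in both directions, more of them up. Of 23 tested members of 29 collagen genes 12 rose, 1 fell (6 and 0 without Per1KO, 5 and 1 without Per2KO) and 5 were switched on, with a median of 0.88. Col3a1, a fibrillar collagen, was the most abundant gene of these that rose, at 4459, 1614 and 1817 CPM on day 0 and, on day 3, 7832, 5643 and 4944 CPM (1.4 ± 0.29, adjusted p = 0.00888). Col12a1, which coats fibrils, rose from 33.8, 26.2 and 19.7 CPM to 155, 345 and 288 CPM (3.34 ± 0.37, adjusted p = 0.000654). Col7a1, of anchoring fibrils, was switched off, from 5.08, 9.63 and 8.5 CPM to 1.82, 0.89 and 0.704 CPM (-3.1 ± 0.47, adjusted p = 0.00221). Among other matrix proteins 15 of 42 tested rose and 6 fell (9 and 4 without Per1KO, 10 and 5 without Per2KO), with 9 switched on and 4 off. Dcn, the proteoglycan decorin, went from 51.5 to 539.7 CPM in WT, from 6.57 to 679 in Per1KO and from 13.7 to 711 in Per2KO (5.1 ± 0.71, adjusted p = 0.00172). The groups do not overlap and the knockouts moved most. Sparc, an abundant collagen-binding protein, rose from 2220.3, 1201 and 1207 CPM to 6591, 3665 and 3329 CPM (1.55 ± 0.14, adjusted p = 0.000231). Spp1, osteopontin, fell from 3026, 2421 and 1796 CPM to 811, 581 and 685 CPM (-1.8 ± 0.30, adjusted p = 0.00324), and Nid1, a basement membrane linker, fell from 1591, 1123 and 920.4 CPM to 367, 583 and 525 CPM (-1.3 ± 0.25, adjusted p = 0.00628). Cilp, a cartilage matrix protein, was a WT signal in the main: it had 5, 0 and 0 reads on day 0 and 1648, 174 and 94 reads on day 3. Col3a1 and Col7a1 lost their calls without Per1KO (adjusted p = 0.0933 and 0.0573). Col3a1 lost its call without Per2KO (adjusted p = 0.0869).

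Proteases and adhesion receptors moved in both directions. Of 35 tested proteases and inhibitors 18 rose and 5 fell (8 and 2 without Per1KO, 8 and 2 without Per2KO), with a median of 0.84. Adamts2, which processes procollagen, rose from 47.5, 2.21 and 6.06 CPM to 248, 50.5 and 51.5 CPM (3.36 ± 0.42, adjusted p = 0.00105), and Adam8, a membrane protease, fell from 46.2, 28.7 and 24.9 CPM to 13.9, 3.56 and 2.81 CPM (-2.7 ± 0.31, adjusted p = 0.000642). Adamtsl2, a matrix glycoprotein that binds latent TGF-beta binding proteins, was among the largest rises of all protein-coding genes, from at most 3 reads to 37.9, 19.4 and 15.8 CPM. Of 18 tested members of the integrin list, which also counts Itgb1bp2, 10 rose and 3 fell (4 and 2 without Per1KO, 4 and 1 without Per2KO). Itga7, the laminin receptor of muscle, was high on both days and rose from 1601, 1145 and 1105 CPM to 3102, 2585 and 2487 CPM (1.09 ± 0.18, adjusted p = 0.00326). Itgb1bp2, melusin, an integrin-binding protein of striated muscle, rose from 2.12, 0.426 and 0.138 CPM to 133, 50.1 and 47.6 CPM (7.06 ± 0.50, adjusted p = 0.000128). Itgb7, an integrin subunit best known from lymphocytes, was switched off, with 211, 2684 and 4263 reads on day 0 and 0, 179 and 191 reads on day 3, and in WT no read remained on day 3. Itga7 lost its call without Per1KO (adjusted p = 0.0698). Itga7 lost its call without Per2KO (adjusted p = 0.0607).

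Secreted factors and their receptors changed gene by gene. In the insulin-like growth factor axis 6 of 18 tested rose and 2 fell (4 and 0 without Per1KO, 5 and 1 without Per2KO), with a median of 0.18. Igf2, the growth factor that myoblasts make for themselves on differentiation, was at 14.8, 0.588 and 0.276 CPM on day 0 and, on day 3, 436, 63.9 and 58.1 CPM (6.08 ± 0.56, adjusted p = 0.000315), but 76.0% of its 31-base stretches occur in another gene model, so its level is uncertain. H19, the non-coding RNA beside it, had the largest gain in CPM of all called genes and went from 1668 to 11770.1 CPM in WT, from 459.9 to 5972 in Per1KO and from 253 to 5918 in Per2KO (3.58 ± 0.47, adjusted p = 0.00137). Igf1, the circulating and local growth factor, reached 48.7 CPM in WT and 5.38 and 4.31 CPM in the knockouts from at most 11 reads. Igfbp5, the most abundant binding protein, did not pass, at 4755, 2468 and 2489 CPM on day 0 and, on day 3, 4116, 4104 and 4241 CPM: it was lower on day 3 in WT and higher in both knockouts. Igfbp2 was switched off evenly, from 1194, 1212 and 1076 CPM to 562, 545 and 506 CPM (-1.11 ± 0.18, adjusted p = 0.00275). Igfbp2 lost its call without Per1KO (adjusted p = 0.0573). Igfbp5 passed without WT (adjusted p = 0.000519).

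Of 29 tested growth factor receptors 11 rose and 5 fell (4 and 4 without Per1KO, 4 and 4 without Per2KO). Ngfr, the low-affinity neurotrophin receptor, was the deepest fall, from 18.4 to 0.73 CPM in WT, from 12.2 to 0.642 in Per1KO and from 17.8 to 0.662 in Per2KO (-4.52 ± 0.20, adjusted p = 3.59e-05). On day 3 its 3 values lay between 0.642 and 0.730 CPM, the WT value resting on 4 reads. Met, the receptor of hepatocyte growth factor on satellite cells, fell from 141, 175 and 147 CPM to 67, 63.6 and 65.1 CPM (-1.24 ± 0.13, adjusted p = 0.000393). Fgfr4, an FGF receptor of differentiating muscle, rose from 2.54, 0.71 and 0.354 CPM to 9.49, 3.52 and 3.0 CPM (2.42 ± 0.30, adjusted p = 0.000869). In the TGF-beta list 11 of 29 tested rose and 1 fell (5 and 1 without Per1KO, 6 and 1 without Per2KO), so 41.4% were called, against 35.0% of all tested genes. Fst, follistatin, which binds activins and myostatin, rose from 2.54, 1.03 and 0.472 CPM to 116, 45.3 and 41.5 CPM (5.88 ± 0.45, adjusted p = 0.000154), and Grem1, a BMP antagonist, was the member that fell, from 263, 106 and 177 CPM to 56.2, 30.7 and 47.9 CPM (-1.96 ± 0.18, adjusted p = 0.000254). Mstn, myostatin itself, had at most 1 read in any library. Among 30 tested chemokines, cytokines and myokines 7 rose and 8 fell (2 and 4 without Per1KO, 4 and 3 without Per2KO). Il15 and Fndc5, both known as muscle-derived factors, rose, Fndc5 to 49.1 CPM in WT and 7.54 and 7.55 CPM in the knockouts. Prl2c3, a proliferin, fell from 64.0, 158 and 77.7 CPM to 1.82, 3.52 and 3.93 CPM, but shares 86.0% of its 31-base stretches with its family. Fndc5 lost its call without Per1KO (adjusted p = 0.0766).

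Several further genes fell steeply in all 3 populations. Ptprn, a membrane protein of secretory granules, went from 25, 23.1 and 24.5 CPM to 0.912, 0.642 and 1.24 CPM (-4.7 ± 0.23, adjusted p = 3.59e-05). Hhip, which binds Hedgehog ligands, went from 48, 49.6 and 46.9 CPM to 2.74, 4.6 and 4.74 CPM (-3.49 ± 0.23, adjusted p = 8.44e-05), with closely similar values in the 3 populations on both days. The neurofilament genes Nefl and Nefm, known from axons, lie side by side with an overlap on opposite strands and both fell, Nefl from 185, 296 and 151 CPM to 23.5, 18.1 and 15.4 CPM (-3.45 ± 0.41, adjusted p = 0.000860). Nefm lost its call without Per1KO (adjusted p = 0.0863).

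Genes of cholesterol and fatty acid synthesis rose more often than they fell. Of 35 tested members of 36 cholesterol and fatty acid synthesis genes 21 rose and 3 fell, with medians of 0.38, 0.69 and 1.27, and 24, 8 and 10 rose with each population left out in turn. Hmgcs1, the synthase before the rate-limiting reductase, was at 260.0, 206 and 102 CPM on day 0 and, on day 3, 406, 548 and 539.7 CPM (1.42 ± 0.34, adjusted p = 0.0159); Per2KO began lowest and had caught up with Per1KO on day 3. Idi1, an isomerase of the same pathway, was switched on, from 6.78, 8.82 and 3.41 CPM to 19.7, 28.7 and 24.8 CPM (2.03 ± 0.32, adjusted p = 0.00283). The members that fell, Elovl6, Fads1 and Me1, make or modify fatty acids or supply their reducing power. Hmgcs1, Elovl6, Fads1 and Me1 lost their calls without Per1KO (adjusted p = 0.126 to 0.347). Hmgcs1, Fads1 and Me1 lost their calls without Per2KO (adjusted p = 0.0561 to 0.207). Elovl6 lost its call without WT (adjusted p = 0.0612). Elovl6 and Me1 lost their calls with the 6 libraries only (adjusted p = 0.0792 and 0.0864).

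Among genes of protein breakdown and p53 targets, rises outnumbered falls. Of 25 tested proteolysis and autophagy genes 15 rose and 1 fell (7 and 0 without Per1KO, 9 and 0 without Per2KO), with a median of 0.64. Trim63, the muscle ubiquitin ligase MuRF1, rose from at most 13 reads to 40.5, 16.7 and 17.0 CPM, and Asb2, a ligase subunit that targets filamins, rose from 1.13, 0.203 and 0.276 CPM to 24.4, 31.2 and 26.8 CPM (6.63 ± 0.75, adjusted p = 0.000708). Of 27 tested members of the list of p53 targets, 12 rose and 4 fell (4 and 1 without Per1KO, 5 and 1 without Per2KO), with a median of 0.34. The list also counts Trp53, which is among the 4. Beside Cdkn1a, Eda2r, a receptor of the TNF family, was switched on, from 55.5, 51.8 and 82.6 CPM to 327, 231 and 222 CPM (2.0 ± 0.25, adjusted p = 0.000988). Trp53 itself fell slightly, from 118, 148 and 138 CPM to 87.2, 93 and 83.6 CPM (-0.61 ± 0.11, adjusted p = 0.00492). Of 26 tested interferon-stimulated genes 9 rose and none fell (3 and 0 without Per1KO, 2 and 0 without Per2KO), a share of 34.6% against 35.0% of all genes called. Trp53 lost its call without Per1KO (adjusted p = 0.123). Trp53 lost its call without Per2KO (adjusted p = 0.107).

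In the non-muscle cytoskeleton, more genes fell than rose, with 40.4% of the tested members called against 35.0% of all tested genes. Of 52 tested members of 54, 15 fell and 6 rose (3 and 2 without Per1KO, 7 and 2 without Per2KO), with a median of -0.17. Vim, vimentin, the filament protein of mesenchymal cells, lost the most CPM of all called genes, from 8129, 8015 and 6523 CPM to 4737, 4660.4 and 4709 CPM (-0.68 ± 0.15, adjusted p = 0.0104). Flna, filamin A, fell from 2816, 3086 and 2926 CPM to 1322, 1765 and 1675 CPM (-0.90 ± 0.15, adjusted p = 0.00351), and Tubb5, a beta tubulin, fell from 1907, 2048 and 1495 CPM to 1113, 770.4 and 744 CPM (-1.06 ± 0.18, adjusted p = 0.00353). Tubb6, another beta tubulin, rose, from 465, 456 and 334 CPM to 1131, 786 and 757 CPM (1.09 ± 0.24, adjusted p = 0.0106). Vim, Flna, Tubb5 and Tubb6 lost their calls without Per1KO (adjusted p = 0.0612 to 0.214). Vim, Flna and Tubb6 lost their calls without Per2KO (adjusted p = 0.0668 to 0.114).

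Of 21 tested clock genes 5 rose and 1 fell (2 and 0 without Per1KO, 3 and 0 without Per2KO), with a median of 0.36. The share called was 28.6%, against 35.0% of all tested genes. Bhlhe40 and Bhlhe41, repressors that also act on myogenic genes, rose, Bhlhe40 from 135, 83.9 and 84.2 CPM to 365, 166 and 148 CPM (1.07 ± 0.14, adjusted p = 0.00104) and Bhlhe41 from 56.9, 31.6 and 27.2 CPM to 110.0, 101 and 108 CPM (1.52 ± 0.25, adjusted p = 0.00337). Per2 passed the test (0.75 ± 0.24, adjusted p = 0.0408) and Per1 did not (0.48 ± 0.22, adjusted p = 0.118), at the levels given above. The hour of sampling is not given in the labels. Per2 and Bhlhe41 lost their calls without Per1KO (adjusted p = 0.172 and 0.0566). Per2 lost its call without Per2KO (adjusted p = 0.395). Per2 lost its call with the 6 libraries only (adjusted p = 0.102). Per1 passed without WT (adjusted p = 0.00418).

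**Figure D5:**
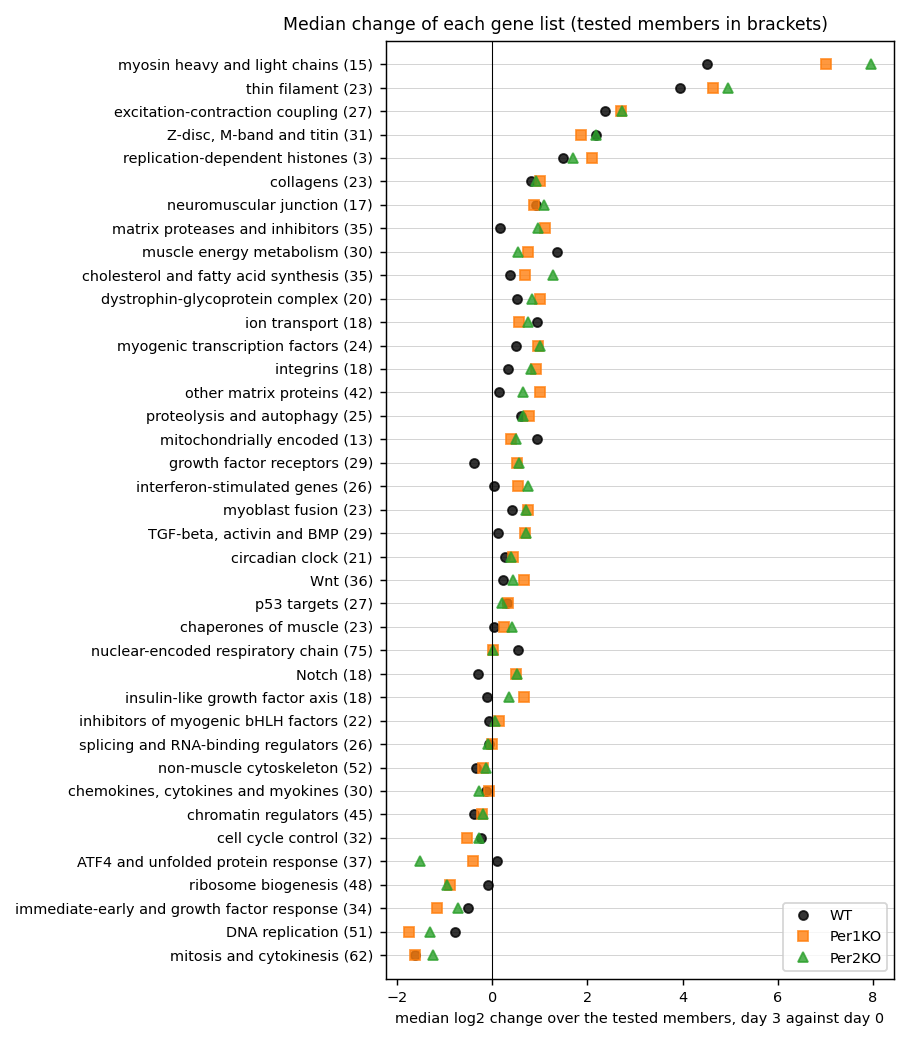
Median log2 change from day 0 to day 3 over the tested members of each of 39 gene lists (number tested in brackets), 1 symbol per population. Contractile and excitation lists lie to the right for all 3 populations and replication and mitosis to the left, with most other lists between -1 and 1; the median of all tested genes is -0.01.

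Defining markers of several other cell types were at or near 0. Of 14 markers of endothelium and blood 7 had at most 3 counts in every library, and the summed level of all 14 was 1.1 to 3.7 CPM. Of the 2 that were tested 1, Hba-a1, fell and was switched off (0 fell without Per1KO), and 1 was not called. Pecam1 and Ptprc, which define these cells, had at most 4 and 1 reads. Adipoq, of adipocytes, had none, although Pparg was read and fell and Lpl rose, and the adipocyte list summed to 62.0 to 195 CPM. Of 4 tested neuronal and glial markers 2 fell, none rose and 2 were not called. Snap25 and Sox10 had no read, but the list summed to 246 to 382 CPM. Of 14 bone and cartilage markers 5 were tested, of which 1 rose and 3 fell, and their summed level was 106 to 233 CPM. Bglap2, an osteocalcin, met the limits for switched on, from at most 15 reads on day 0 to at most 61 on day 3. It shares 95.2% of its 31-base stretches with other genes, so its level is uncertain. Phex, an endopeptidase of bone, Sox9 and Runx2, factors of cartilage and bone, fell, while Sp7, Acan and Col2a1 had at most 6 reads. Of 9 tested fibroblast and smooth muscle markers 4 rose and none fell. Their list's summed level went from 3217, 2377 and 1928 CPM to 8368, 6838 and 6635 CPM, mainly through Acta2, Des and Dcn. The other 5 tested markers passed the filter on low counts but were not called. Myh11 and Tcf21, which are more restricted, had at most 4 reads and do not stand for the whole list. The part of such cells in the matrix and actin results was not tested. Of 16 tested markers of satellite and reserve cells, undifferentiated cells that stay behind in such cultures, 8 rose and 2 fell (2 and 1 without Per1KO, 4 and 1 without Per2KO). Calcr had no read, Sdc4 fell (-0.61 ± 0.18, adjusted p = 0.0308), Spry1 and Cxcr4 rose, and Pax7 did not pass. Lpl, Bglap2, Phex, Sox9, Runx2, Sdc4 and Cxcr4 lost their calls without Per1KO (adjusted p = 0.0543 to 0.171). Lpl, Phex, Sox9, Runx2 and Sdc4 lost their calls without Per2KO (adjusted p = 0.0512 to 0.175). Runx2 and Sdc4 lost their calls with the 6 libraries only (adjusted p = 0.0505 and 0.0946).

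The populations did not respond alike in every gene. At least 2-fold higher on day 3 were 1280 genes in WT, 1569 in Per1KO and 1537 in Per2KO, and at least 2-fold lower 1103, 1162 and 1153. Of the WT rises 56.2% were also 2-fold rises in both knockouts, and of the WT falls 37.0%. Taken from the other side, 57.1% of the 1260 rises and 49.9% of the 817 falls shared by the knockouts were also seen in WT. In 259 genes WT moved opposite to a 2-fold change in both knockouts, in 49 of them also by 2-fold. The 5 genes with the largest such WT change, Rapgef3, Hlf, Adra1d, Mmp3 and Dock10, had at most 35 reads in WT, and none was called. Hlf, a clock output factor, had 24, 24 and 17 reads on day 0 and 0, 62 and 63 reads on day 3. In each of these 5 the WT value on day 3 rests on at most 2 reads, and the difference between WT and the knockouts was not tested. Rapgef3, Hlf, Adra1d, Mmp3 and Dock10 passed without WT (adjusted p = 0.000234 to 0.00469). Their choice already required a 2-fold change in both knockouts, so that result is not an independent test.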

How the data were processed

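Whole-number read counts per Ensembl gene were used as deposited by the authors (47729 genes, 47224 with a symbol). CASAVA 1.8, HISAT2 2.1.0 and build mm10 are named in the submitters' processing notes; the counting program, annotation and use of strand are not given in the sources used here. Per the labels, libraries were poly(A)-selected TruSeq single reads. Genes reaching 1 CPM in 3 or more of the 9 libraries were tested with edgeR 4.0.16 (limma 3.58.1, R 4.3.3): robust quasi-likelihood F-test, TMM scaling, population as a block plus day, 4 residual degrees of freedom, Benjamini-Hochberg adjustment over all 13324 genes. The pairing comes from the population label. Each ± value is an SE, the size of the fitted log2 fold change divided by the square root of its F statistic. Floors cover counting error only. Positions, lengths and shared 31-mers come from GENCODE M21 on GRCm38, promoters from RefSeq. The fit was tested on simulated data. Alternatives were DESeq2 1.42.0, limma-voom, other scalings and filters, and each population left out. Named genes were a preset list, the largest changes overall and per list, members at or near 0, isoform pairs, genes near the 2-fold limit and the largest opposite changes in WT. Bysl, Cdc20, Chrna1, Chrne, Des, Myh11, Mylk2, Mylk4, Myot, Pecam1, Pvalb, Sp7, Tnni1 and Ube2c were added after their values were seen. A few genes are not reported here. Members and lists were chosen with earlier results of these data known.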

Additional observations from a re-analysis of the deposited data

Results flagged for a closer look

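In 5 named genes, none of them called, the WT level was at least 2-fold lower on day 3 than on day 0 while both knockouts were at least 2-fold higher; with 1 library per population and day this difference was not tested. The log2 change in WT was -5.83 for Hlf, -4.46 for Dock10, -4.36 for Rapgef3, -4.29 for Mmp3 and -3.34 for Adra1d. In the knockouts the changes ran from 1.3, for Hlf and Adra1d, to 3.53, for Dock10 in Per1KO. The WT libraries held 24 and 0 reads of Hlf, 9 and 0 of Dock10, 35 and 1 of Rapgef3, 8 and 0 of Mmp3 and 30 and 2 of Adra1d. All 5 were chosen for this opposition, and all 5 passed the test when WT was left out (adjusted p = 0.000234 to 0.00469, edgeR). The fit without WT uses the knockout values that entered the choice, so passing it is not independent support.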

How the results depend on the processing

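Each population was left out in turn: 1147 to 7684 genes were then called, 736 to 3882 higher and 411 to 3802 lower, the lowest counts without Per1KO and the highest without WT, and 607 to 1260 were switched on and 297 to 817 off. Of the 719 and 408 switched genes, 570 and 279 kept that call without Per1KO and 618 and 320 without Per2KO. Population is the replicate block of the main fit. Without that block 2702 genes were called, 1443 higher and 1259 lower. With only the 6 libraries of days 0 and 3, 3105 were called, 1415 of them lower; there were fewer residual degrees of freedom. A limit of 1.5-fold in each pair gave 1221 switched on and 911 off, and 4-fold gave 348 and 47. All other scalings, filters and tests kept the totals within 1.5 times the main count, from 3455 called at a minimum of 10 CPM to 5630 with limma-voom. Mb, Hba-a1, Mylk2 and Mylk4 were not followed through these settings. Of 177 other named genes tested, 159 were called. Of these calls 76 were lost without Per1KO, 48 without Per2KO, 1 without WT, 12 with 6 libraries, 1 with DESeq2 size factors and 0 with DESeq2's Wald test. Without WT, 13 named genes passed in addition, and 1 changed sign while being called in 1 of the 2 fits. Ckb, not called in the main fit, ran from -0.31 without WT to 0.75 without Per1KO on the log2 scale. The causes of these changes were not tested. Depth limits WT most: a gene under 0.443 CPM there on day 0, or under 0.520 CPM on day 3, cannot be told from 0.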

Other observations

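Regulators of RNA and chromatin also changed. Of 26 tested splicing and RNA-binding regulators 8 rose and 8 fell (3 and 3 without Per1KO, 3 and 4 without Per2KO). Rbm24, a splicing factor of muscle, was at 16, 0.933 and 0.571 CPM on day 0 and, on day 3, 167, 35.1 and 31.6 CPM (4.59 ± 0.51, adjusted p = 0.000650), highest in WT on both days. Ptbp1, which represses muscle exons in proliferating cells, fell from 256, 383 and 365 CPM to 128, 149 and 144 CPM (-1.25 ± 0.17, adjusted p = 0.00130). Celf4, an RNA-binding protein known from neurons, was switched off, from 20.2, 12 and 10.9 CPM to 3.28, 1.24 and 1.43 CPM (-2.99 ± 0.22, adjusted p = 0.000124). Of 45 tested chromatin regulators 19 fell and 9 rose (7 and 2 without Per1KO, 11 and 2 without Per2KO). Hmgb2, an abundant chromatin protein of dividing cells, fell from 45.2, 36.3 and 28.8 CPM to 12.8, 7.99 and 8.05 CPM (-1.96 ± 0.21, adjusted p = 0.000436), and Hdac11, a histone deacetylase, rose from 7.34, 3.1 and 5.77 CPM to 17.1, 12.8 and 13.5 CPM (1.5 ± 0.27, adjusted p = 0.00474).

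Chaperones moved in both directions. Of 23 tested 7 rose and 5 fell (5 and 1 without Per1KO, 6 and 1 without Per2KO). Hspb7, a small heat shock protein of heart and muscle, rose from at most 8 reads to 63.7, 10.1 and 8.40 CPM, and Unc45b, which folds muscle myosin, rose from 7.2, 0.142 and 0.177 CPM to 114, 33.3 and 29.7 CPM (5.74 ± 0.78, adjusted p = 0.00152). Its widespread relative Unc45a fell from 62.4, 38 and 40.1 CPM to 31, 22.4 and 20.9 CPM (-0.90 ± 0.11, adjusted p = 0.000987), and so did Hspd1, the mitochondrial chaperonin, from 199, 539.9 and 491 CPM to 139, 176 and 183 CPM (-1.21 ± 0.21, adjusted p = 0.00436). In the Notch list 4 of 18 tested rose and 1 fell (0 and 1 without Per1KO, 1 and 1 without Per2KO), and in the Wnt list 11 of 36 rose and 4 fell (3 and 1 without Per1KO, 4 and 1 without Per2KO). The shares called were 27.8% for Notch and 41.7% for Wnt, against 35.0% of all tested genes. Dll1, a Notch ligand, was at 7.77, 2.37 and 2.03 CPM on day 0 and, on day 3, 18.1, 25.5 and 23.7 CPM (2.79 ± 0.49, adjusted p = 0.00488), and Wnt7b, a secreted ligand, was switched off, from 29.2, 61 and 45.9 CPM to 7.84, 19.4 and 16.6 CPM (-1.67 ± 0.20, adjusted p = 0.000852). Unc45b, Hspd1 and Dll1 lost their calls without Per1KO (adjusted p = 0.0586 to 0.122). Hspd1 and Dll1 lost their calls without Per2KO (adjusted p = 0.0590 and 0.0709).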
